A study of Homo sapiens with 9 samples.

Results

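The histone deacetylases (HDACs) are a family of enzymes, and mRNA of 10 of its zinc-dependent members was described here in 3 human pancreatic cancer cell lines. The members were taken by gene symbol, not by any measured value, although earlier results of these data were known. They were HDAC1, HDAC2, HDAC3 and HDAC8 of class I, HDAC4, HDAC5, HDAC7 and HDAC9 of class IIa, HDAC6 of class IIb and HDAC11 of class IV. All 10 were found among the 42717 genes of the count table, and all 10 passed the filter on low counts in each of the 3 comparisons. The lines S2-007, S2-028 and S2-020 were derived from SUIT-2, a human line of pancreatic ductal adenocarcinoma (PDAC), and RNA of each gave 3 libraries, 9 in all. S2-007 carries maspin protein in the nucleus and the cytoplasm (panMaspin), S2-028 carries it mainly in the cytoplasm (cytMaspin), and in S2-020 the protein is scarcely detectable. Maspin is a serpin encoded by SERPINB5. The cells of all 3 lines were grown in the same serum-containing medium, and the labels name no treatment, transgene or deletion. Each line is a single subline, so a difference between lines cannot be assigned to maspin, and nothing in the labels says whether the libraries came from separate cultures, so p-values measure only the spread between these libraries.

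Histone deacetylases remove acetyl groups from lysines of histones and other proteins, and deacetylated chromatin is in general less open to transcription. Class I enzymes sit mostly in the nucleus as the catalytic subunits of corepressor complexes, with HDAC1 and HDAC2 in the SIN3, NuRD, CoREST and MiDAC complexes and HDAC3 in the NCoR complex, whereas HDAC8 works without such a complex and deacetylates the cohesin subunit SMC3. Class IIa enzymes have weak catalytic activity of their own, bind MEF2 transcription factors, and leave the nucleus when kinases phosphorylate them and 14-3-3 proteins bind. HDAC6 is a cytoplasmic enzyme that deacetylates alpha-tubulin and cortactin, and HDAC11 removes long fatty acyl groups from lysines. Maspin has been described as an inhibitor of HDAC1, and the study used HDAC1 protein as its marker of the nuclear fraction. This is the question behind a comparison of these genes between lines with different maspin.

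Promoters of HDAC1 and HDAC9 are shown, the former as the member that maspin has been linked to and the latter because it has several annotated starts of different composition. Each sequence holds the 250 bases before a transcription start annotated by RefSeq on GRCh38.p14, read in the direction of the gene. Capitals mark GGGCGG, the core of the GC box, and CTATTTTT, letters found in MEF2 sites, each on either strand, so that CCGCCC and AAAAATAG are marked as well. The HDAC1 window lies at chr1:32291833-32292082 and the HDAC9 windows at chr7:18086575-18086824 and chr7:18495460-18495709, the latter before the first of several inner starts, all on the plus strand.
HDAC1: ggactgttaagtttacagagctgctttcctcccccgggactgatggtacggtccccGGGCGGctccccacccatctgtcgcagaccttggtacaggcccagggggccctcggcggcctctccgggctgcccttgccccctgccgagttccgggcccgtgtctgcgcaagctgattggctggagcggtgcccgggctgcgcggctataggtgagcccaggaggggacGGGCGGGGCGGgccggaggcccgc
HDAC9, first start: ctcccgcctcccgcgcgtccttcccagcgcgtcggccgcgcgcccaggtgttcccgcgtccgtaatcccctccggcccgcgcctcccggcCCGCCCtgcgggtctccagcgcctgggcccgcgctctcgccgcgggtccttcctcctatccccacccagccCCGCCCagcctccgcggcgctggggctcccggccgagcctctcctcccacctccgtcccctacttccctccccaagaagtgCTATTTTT
HDAC9, inner start: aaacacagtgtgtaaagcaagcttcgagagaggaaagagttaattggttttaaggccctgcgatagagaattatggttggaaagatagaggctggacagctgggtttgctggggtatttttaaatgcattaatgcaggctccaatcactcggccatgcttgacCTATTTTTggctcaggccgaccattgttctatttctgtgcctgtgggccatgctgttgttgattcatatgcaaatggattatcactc

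GGGCGG was found 3 times before HDAC1, in a window of 71.6% GC. The like windows of HDAC11 and HDAC8 (not printed, since further transcripts are annotated as starting within them) held 5 copies at 73.6% GC, some of them overlapping, and no copy at 48.0% GC. The HDAC9 gene showed both kinds of start, with 75.2% GC and 2 copies of GGGCGG before the first start and 44.0% GC and no copy before the printed inner start. The windows of its other inner starts, of which one overlaps the printed window, had 38.4% to 48.0% GC and no copy of GGGCGG. CTATTTTT ended directly at the first HDAC9 start and began 87 bases before the printed inner one, and the other inner windows held it 1, 0 and 2 times. Of 35116 such windows over all genes, 42.6% held GGGCGG and 1.24% held CTATTTTT on either strand. A match is a description of the letters and not evidence of a bound factor, and counts per gene do not tell which start was used.

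Total counts per library lay between 60328748 and 86253923, with medians of 72534872 in S2-007, 75685674 in S2-020 and 61237397 in S2-028. Each library was nearest to one of its own line. SERPINB5 was at 202.7, 220.9 and 211.2 CPM (counts scaled to library size by the TMM method) in S2-007, at 6.91, 6.68 and 6.08 in S2-020, and at 26.3, 26.0 and 30.9 in S2-028. The keratins KRT8 and KRT18 of epithelial cells were present in all libraries, but the summed CPM of 6 epithelial markers was 9540 to 10100 in S2-007, 4310 to 5430 in S2-020 and 15200 to 17800 in S2-028. KRT8 and KRT18 carried the higher sum of S2-028. Against S2-007, KRT7, KRT18, CDH1 and KRT8 were at log2 fold changes of 1.88, 1.27, 1.05 and 0.82 there. EPCAM and KRT19 were at -0.32 and -0.13 in the same comparison. In S2-020 against S2-007, KRT19, KRT7 and EPCAM were at -4.4, -2.4 and -2.15, and KRT8 and KRT18 at -0.76 and -0.29. The adhesion protein CDH1 was as low as 304 counts, in S2-020. The sum of 5 leukocyte markers was 337 to 411 CPM in S2-007 against at most 13.8 in the other lines, carried by LYZ and CD68, whereas the defining markers PTPRC (6 to 26 counts) and CD3E (0 to 22 counts) were near 0. The sum of 5 fibroblast markers was at most 5.75 CPM and that of 3 endothelial markers at most 9.84 CPM. The part of these marker differences in the results below was not tested, and in bulk RNA fewer cells of a type and less RNA per cell cannot be told apart.

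HDAC1 was the most abundant member in every line once counts were divided by transcript length. Its mean level was 123.2 ± 1.76 RPKM (CPM per kilobase of transcript, SD, n = 3) in S2-007, 80.4 ± 3.12 in S2-020 and 102.1 ± 7.68 in S2-028. In S2-007 HDAC3 (24.7 ± 1.27) and HDAC7 (24.2 ± 1.32) came next and their libraries overlapped, followed by HDAC2 (14.9 ± 0.877), HDAC8 (9.32 ± 0.751) and HDAC6 (8.17 ± 0.198). HDAC4 (4.69 ± 0.537) and HDAC11 (4.65 ± 0.183) again overlapped, HDAC5 was lower (3.16 ± 0.303), and HDAC9 was last at 0.405 ± 0.125 RPKM. The tail of the order was thus held by class IIa and class IV enzymes, except for HDAC7. In S2-020 and S2-028 HDAC7 stood above HDAC3, at 35.0 and 30.8 RPKM against 25.4 and 26.2, with no overlap of libraries. In S2-020 the libraries of HDAC8 and HDAC6 overlapped, as did those of HDAC11 and HDAC5, and in S2-028 those of HDAC5 and HDAC11. HDAC8 took place 5 in S2-007 and S2-020 and place 4 in S2-028, above HDAC2. Its place rests on the length of 1754 bases of its MANE Select transcript, and with the 22888 bases of all its annotated exons it was at place 9 in each line. The MANE Select transcript of HDAC2 has 9737 bases and that of HDAC1 2118. With all annotated exons HDAC1 was still first in each line, but HDAC2 stood above HDAC3 in S2-020 (12.1 against 10.7 RPKM).

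**Figure D1:**
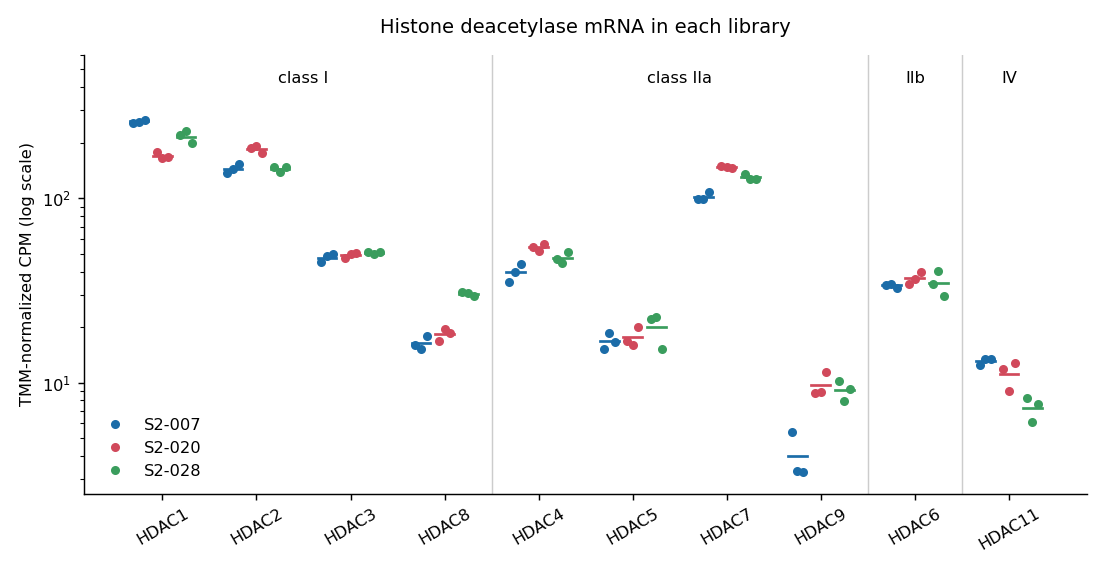
TMM-normalized CPM (log axis) of the 10 histone deacetylase genes in each library, ordered by class, with points for libraries and bars for the mean of 3. CPM are not divided by transcript length, so the plot compares lines within a gene. The 3 S2-028 points of HDAC8 and of HDAC11, and the 3 S2-007 points of HDAC9, stand apart from those of both other lines.

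As a class, the 4 class I genes together reached 469.7 ± 15.5 CPM (SD, n = 3) in S2-007, 423.1 ± 8.83 in S2-020 and 442.0 ± 12.2 in S2-028. The 4 class IIa genes reached 162.4 ± 9.2, 229.3 ± 3.78 and 206.5 ± 7.74 CPM, so that the libraries of S2-007 (154.6 to 172.5) lay below all others. On the RPKM scale class I made up 79.2%, 69.8% and 75.5% of the summed level of the 10 genes and class IIa 14.9%, 23.6% and 19.3%, in the same order of lines. HDAC7 made up most of the class IIa sums, and HDAC1 most of the class I sums on the RPKM scale. In CPM, HDAC2 was above HDAC1 in S2-020 (means of 185.3 and 170.3). The sums were not tested.

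Compared with S2-007, S2-028 cells had higher HDAC8 and HDAC9 and lower HDAC11, and these 3 of the 10 members were called as differentially expressed genes (DEGs). A DEG had an adjusted p under 0.05 (Benjamini-Hochberg over all genes, edgeR's quasi-likelihood test) and differed by at least 1.5-fold, whether up or down. Of all 26371 genes tested, 18.4% were DEGs, 10.2% higher and 8.19% lower. By adjusted p alone 6 members passed, against 33.9% of all genes. For 7 members the libraries of S2-028 and S2-007 did not overlap, against 43.3% of all genes. The median log2 fold change of the members was 0.17, and that of all genes 0.002.

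Between S2-020 and S2-007, 2 of the 10 members were DEGs, with HDAC9 higher and HDAC1 lower in S2-020, against 21.6% of the 26657 genes tested (9.57% higher, 12.1% lower). By adjusted p alone 5 members passed (40.2% of all genes), and 5 had libraries that did not overlap (48.5% of all genes). The members' median log2 fold change was 0.12, and that of all genes was -0.05. Between S2-028 and S2-020, 2 members were DEGs, with HDAC8 higher and HDAC11 lower in S2-028, against 22.2% of 26031 genes (12.1% higher, 10.1% lower). Here 6 members passed by adjusted p alone (40.4% of all genes) and 6 did not overlap (48.9% of all genes), with a median log2 fold change of -0.09 over the members and 0.03 over all genes. With 10 genes these counts do not set the family apart from the background. Over the 3 comparisons, 4 members were DEGs at least once and 6 were never DEGs. The share of all genes that were DEGs at least once was not computed, so this count has no background beside it. The comparisons share libraries, each line entering a pair of them, so they are not independent.

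**Figure D2:**
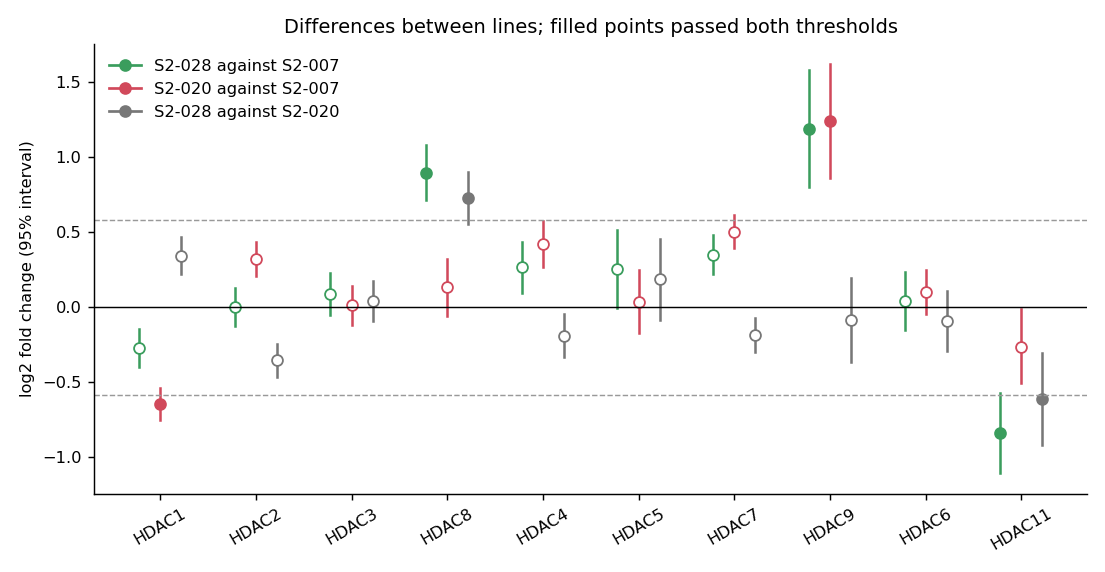
Log2 fold change with its 95% interval for each histone deacetylase gene in the 3 comparisons, where dashed lines mark the 1.5-fold threshold and filled points passed both thresholds. HDAC8, HDAC9 and HDAC11 each hold 2 filled points, HDAC1 holds 1, and the intervals of HDAC3, HDAC5 and HDAC6 include 0 in every comparison.

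HDAC1, the deacetylase that maspin has been reported to bind and inhibit, was at 257.6, 260.2 and 264.9 CPM in the S2-007 libraries, 178.0, 166.3 and 166.8 in S2-020, and 219.0, 230.8 and 198.7 in S2-028. The lines did not overlap, with S2-007 highest and S2-020 lowest. HDAC1 fell by 0.65 on the log2 scale in S2-020 against S2-007 (SE 0.0505, adjusted p = 1.93e-09 in edgeR's quasi-likelihood test). In S2-028 against S2-007 its log2 fold change was -0.27 (95% interval -0.40 to -0.14, adjusted p = 0.00139), under the fold threshold. Against S2-020, S2-028 was higher by 0.35 (adjusted p = 6.88e-05), also under it. The order of HDAC1 mRNA over the lines was that of SERPINB5 mRNA, but 3 lines do not allow a correlation.

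HDAC2, the close paralog that shares HDAC1's complexes, was at 137.0, 143.4 and 153.9 CPM in S2-007, 186.9, 191.9 and 177.0 in S2-020, and 147.2, 138.8 and 148.5 in S2-028. Here S2-020 was the highest line, with no overlap, and the other 2 lines overlapped. The log2 fold change was 0.33 in S2-020 against S2-007 (SE 0.0541, adjusted p = 5.05e-05) and -0.35 in S2-028 against S2-020 (SE 0.0533, adjusted p = 1.74e-05), both under the fold threshold. Between S2-028 and S2-007 it was 0.004, with an interval from -0.12 to 0.13. The 2 paralogs thus differed in opposite directions in S2-020 against each of the other lines.

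The number of HDAC1 reads per HDAC2 read was 1.88, 1.81 and 1.72 in S2-007, 0.952, 0.867 and 0.942 in S2-020, and 1.49, 1.66 and 1.34 in S2-028. Its mean was 1.81 ± 0.0799, 0.920 ± 0.0467 and 1.5 ± 0.163 (SD, n = 3), and the lines did not overlap. The ratio needs no scaling between libraries, and since it is not divided by length it compares lines rather than the amounts of the paralogs. It was computed after both genes' values were known and was not tested.

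**Figure D3:**
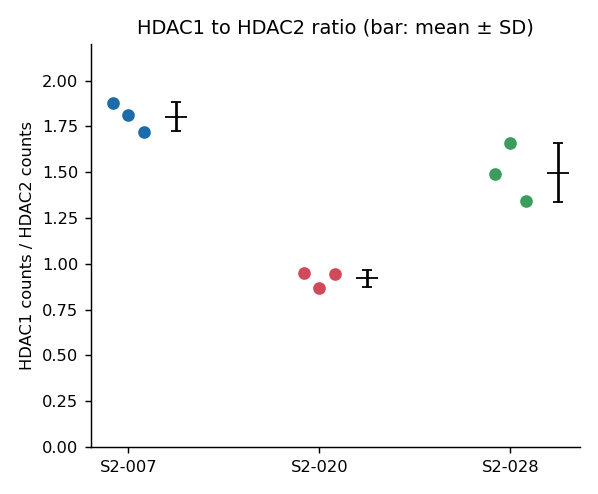
HDAC1 counts divided by HDAC2 counts in each library (points), with the mean and SD of 3 libraries beside them. The 3 S2-020 libraries lie between 0.867 and 0.952, below all S2-028 (1.34 to 1.66) and S2-007 (1.72 to 1.88) libraries.

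HDAC3, the catalytic subunit of the NCoR complex, had no DEG call in any comparison. It was at 44.9, 48.5 and 49.6 CPM in S2-007, 47.2, 49.8 and 50.5 in S2-020 and 50.9, 49.7 and 51.2 in S2-028. Its log2 fold changes were 0.09 in S2-028 and 0.01 in S2-020 against S2-007, and 0.04 between S2-028 and S2-020, and the widest of the 3 intervals reached from -0.05 to 0.23.

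HDAC8 was at 15.9, 15.3 and 17.8 CPM in S2-007, 16.9, 19.4 and 18.7 in S2-020, and 31.0, 30.7 and 29.5 in S2-028. All S2-028 libraries lay above those of the other lines, which overlapped each other. HDAC8 was 1.86-fold higher in S2-028 than in S2-007 (log2 fold change 0.90, SE 0.0872, adjusted p = 3.31e-08) and 1.66-fold higher than in S2-020 (0.73, SE 0.0834, adjusted p = 5.38e-07). Between S2-020 and S2-007 the difference was 0.13, with an interval from -0.06 to 0.32 (adjusted p = 0.277). The HDAC8 difference between S2-028 and S2-007 stayed between 0.86 and 0.95 over all alternative settings tried.

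Among class IIa enzymes, HDAC9 differed most between lines. It was at 5.43, 3.31 and 3.26 CPM in S2-007, 8.79, 8.91 and 11.4 in S2-020, and 10.2, 7.97 and 9.18 in S2-028. The S2-007 libraries lay below all others, with replicate 1 above the other two, and S2-020 and S2-028 overlapped. HDAC9 was 2.28-fold higher in S2-028 (log2 fold change 1.19, SE 0.186, adjusted p = 2.38e-05) and 2.37-fold higher in S2-020 (1.24, SE 0.18, adjusted p = 1.01e-05) than in S2-007. The S2-028 and S2-020 values differed by -0.08, with an interval from -0.37 to 0.20. At 240 to 815 counts per library HDAC9 was the least covered member in S2-007 and S2-020. In S2-028 the least covered was HDAC11, at 391 to 510 counts. Leaving out 1 library at a time moved the HDAC9 differences from S2-007 between 1.05 and 1.49 in S2-028 and between 1.11 and 1.54 in S2-020. Both differences remained DEGs in each case.

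HDAC7, the most abundant class IIa enzyme, was at 98.8, 98.7 and 108.4 CPM in S2-007, 149.1, 148.6 and 145.4 in S2-020, and 136.2, 126.8 and 126.4 in S2-028. The 3 lines did not overlap, with S2-007 lowest and S2-020 highest. Its log2 fold change against S2-007 was 0.35 in S2-028 (SE 0.0616, adjusted p = 9.26e-05) and 0.50 in S2-020 (SE 0.0523, adjusted p = 1.2e-07), and -0.18 between S2-028 and S2-020 (adjusted p = 0.00769). All 3 were under the fold threshold.

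HDAC4 had the same order. It was at 35.1, 39.7 and 44.2 CPM in S2-007, 54.3, 52.0 and 56.4 in S2-020, and 47.0, 44.8 and 50.9 in S2-028, with no overlap between lines. The log2 fold changes were 0.27 in S2-028 (adjusted p = 0.0134) and 0.42 in S2-020 (adjusted p = 7.37e-05) against S2-007, and -0.19 between S2-028 and S2-020 (adjusted p = 0.032), and none reached the fold threshold. HDAC5, which shares the MEF2-binding region of HDAC4, overlapped between all lines, at 15.2 to 18.5 CPM in S2-007, 16.1 to 20.0 in S2-020 and 15.3 to 22.8 in S2-028. Its log2 fold changes were 0.26, 0.04 and 0.19 in S2-028 against S2-007, S2-020 against S2-007 and S2-028 against S2-020, with adjusted p from 0.131 to 0.815.

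HDAC6, the tubulin deacetylase, was at 33.9, 34.3 and 32.7 CPM in S2-007, 34.2, 36.7 and 39.7 in S2-020, and 34.1, 40.3 and 29.4 in S2-028. The lines overlapped, and its largest log2 fold change was 0.10, in S2-020 against S2-007, with an interval from -0.05 to 0.25. Its S2-028 libraries were the most spread, and the interval in S2-028 against S2-007 reached from -0.15 to 0.24.

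HDAC11, the only class IV enzyme, was at 12.5, 13.4 and 13.4 CPM in S2-007, 11.8, 9.05 and 12.7 in S2-020, and 8.22, 6.12 and 7.61 in S2-028. The S2-028 libraries lay below all others, and S2-020 and S2-007 overlapped. HDAC11 fell by 0.84 on the log2 scale in S2-028 against S2-007 (SE 0.128, adjusted p = 1.93e-05) and by 0.61 against S2-020 (SE 0.145, adjusted p = 0.00192). The latter call rested on single libraries, since its log2 fold change was -0.57 without S2-020 replicate 1, -0.51 without S2-020 replicate 3 and -0.48 without S2-028 replicate 2, all under the fold threshold. Between S2-020 and S2-007 the log2 fold change was -0.26 (adjusted p = 0.0895).

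The genomic surroundings of the called members were compared with the members themselves, using the 20 nearest protein-coding genes that were tested. HDAC8 (chrX:72329516-72572843, minus strand) lay among genes that were also mostly higher in S2-028, with 15 of 20 above 0 and a median log2 fold change of 0.21 against S2-007, and again 15 of 20 with a median of 0.46 against S2-020. The medians of all genes in these comparisons were 0.002 and 0.03, and HDAC8 itself was at 0.90 and 0.73. For HDAC9 (chr7:18086825-19002416, plus strand) the neighbours had a median of 0.13 in S2-028 and of -0.75 in S2-020 against S2-007, opposite to HDAC9 in the latter. The neighbours of HDAC11 (chr3:13480306-13506416, plus strand) had medians of 0.10 against S2-007 and 0.04 against S2-020 in S2-028, where HDAC11 was lower. Around HDAC1 (chr1:32292083-32333626, plus strand) the median in S2-020 against S2-007 was 0.04, with 11 of 20 genes above 0 and 9 below. The genes directly before and after HDAC1 were at -8.04 and -1.74, and the next 2 after it at 0.96 and 1.55. In S2-028 against S2-007 the genes directly before and after were at -1.54 and -2.25. The part of the regional differences in those of HDAC8 and HDAC1 was not tested.

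**Figure D4:**
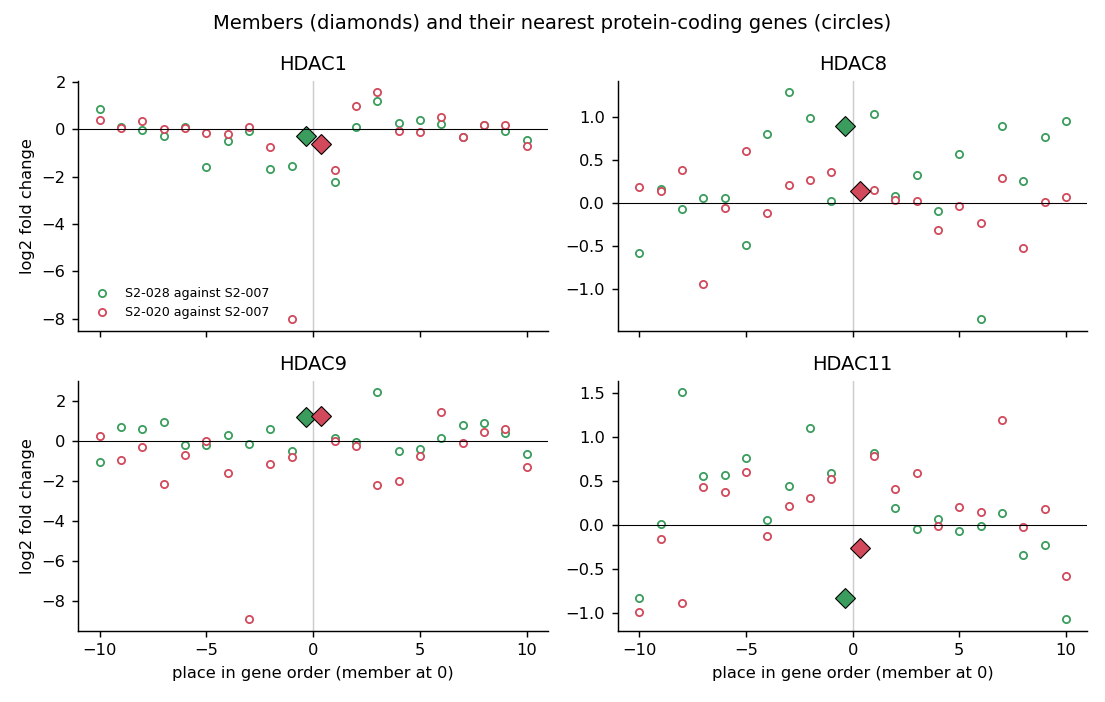
Log2 fold change against S2-007 of HDAC1, HDAC8, HDAC9 and HDAC11 (diamonds at 0, set slightly apart by comparison) and of the 10 tested protein-coding genes nearest on either side (circles, by place in gene order, scales differing between panels). Around HDAC8, 15 of 20 genes lie above 0 in S2-028, whereas HDAC11 lies below most of its neighbours.

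Annotated genes that overlap a member took few counts, except SLC48A1 at HDAC7. Such overlaps matter because the libraries were strand-specific but the strand setting of the counting is not given in the sources used here. The antisense gene HDAC2-AS2 had at most 41 counts in a library, 0.257% of HDAC2's. LOC124908009 within HDAC4 had at most 106 counts, 3.47% of HDAC4's, and HDAC4-AS1 at most 38. LOC124902926 within HDAC7 had at most 74, and HDAC9-AS1 had 0 in every library. SLC48A1, a heme transporter gene with 1453 to 3068 counts, at most 29.9% of HDAC7's, shares 30 bases with the end of HDAC7. SLC48A1 was higher than in S2-007 by 0.80 in S2-028 and by 0.78 in S2-020, where HDAC7 was at 0.35 and 0.50. The part of this overlap in the HDAC7 differences was not tested.

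Of 99 genes listed as partners, related enzymes or responsive genes of the family, 22 were DEGs in S2-028 against S2-007 (22.2%, 8 higher and 14 lower), 25 in S2-020 against S2-007 (25.3%, 14 higher and 11 lower) and 19 in S2-028 against S2-020 (19.2%, 6 higher and 13 lower). All 99 were tested in each comparison, and these shares stand beside 18.4%, 21.6% and 22.2% of all genes. Their median log2 fold changes were -0.002, 0.08 and -0.09. The lists below were not tested as sets.

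Scaffolds that carry HDAC1 and HDAC2 were listed by complex. Of 16 SIN3 complex genes, 4 were DEGs in S2-028 against S2-007 (2 higher, 2 lower). In S2-020 against S2-007 4 were DEGs (all higher), and in S2-028 against S2-020 3 (all lower). These were 25%, 25% and 18.8% of the list, beside 18.4%, 21.6% and 22.2% of all genes. SAP18, a small SIN3-associated protein, fell by 0.79 in S2-028 against S2-007 (adjusted p = 1.7e-09) and by 0.94 against S2-020 (adjusted p = 9.41e-11). SAP30, which bridges SIN3 and HDAC1, was higher in S2-020 than in S2-007 by 0.83 (adjusted p = 7.05e-07), and its relative SAP30L by 0.66. ING1, a reader of methylated histone H3, fell by 1.06 in S2-028 against S2-020 (adjusted p = 1.01e-08). SINHCAF was higher in S2-028 (0.62) and S2-020 (0.63) than in S2-007, and so was BRMS1L (0.82 in S2-028 and 0.84 in S2-020).

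Of 11 NuRD genes, the chromatin remodeler CHD5 alone was a DEG, in S2-028 against S2-007 (9.09%, beside 18.4% of all genes). Its log2 fold change was 1.08 (adjusted p = 0.0134, edgeR's quasi-likelihood test), at means of 1.39 and 0.661 CPM. None was a DEG in the other comparisons, beside 21.6% and 22.2% of all genes. There 7 and 9 had an unadjusted p under 0.05 in edgeR's test at smaller folds. Of 8 CoREST genes, 2, 2 and 1 were DEGs in the 3 comparisons (25%, 25% and 12.5%), all lower. RCOR1, the scaffold that joins HDAC1 or HDAC2 to the demethylase KDM1A, fell by 1.07 in S2-028 against S2-007 (SE 0.0631, adjusted p = 1.32e-11), from a mean of 129.1 to 61.4 CPM. Its paralog RCOR2 fell by 1.32 in S2-028 and 1.09 in S2-020 against S2-007, at means of 1.2 CPM or less. ZMYM2 fell by 0.74 in S2-020 against S2-007, and RCOR3 fell by 0.74 in S2-028 against S2-020. In the MiDAC complex, DNTTIP1 fell by 0.85 in S2-028 and by 0.75 in S2-020 against S2-007, and MIDEAS fell by 0.66 in S2-028. MIDEAS was at -0.46 in S2-020 and TRERF1 at 0.39 and 0.14 against S2-007, under the fold threshold, and none of these 3 genes was a DEG between S2-028 and S2-020 (2 at an unadjusted p under 0.05).

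HDAC3 is active in the NCoR complex, and single genes of this complex are described here. NCOR1 was at -0.46 in S2-028 and -0.56 in S2-020 against S2-007, under the fold threshold, and at 0.07 between S2-028 and S2-020. TBL1X, an exchange factor of the complex, was higher in S2-028 (0.88, adjusted p = 7.08e-09) and S2-020 (1.02, adjusted p = 8.46e-10) than in S2-007. Its paralog TBL1XR1 fell by 0.61 in S2-020 against S2-007 and was higher by 0.88 in S2-028 than in S2-020. GPS2 was at means of 51.2 CPM in S2-007, 34.9 in S2-020 and 51.6 in S2-028, and its difference in S2-020 from either line was just under the fold threshold.

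Of the 4 MEF2 factors, which class IIa enzymes bind and repress, MEF2C differed most. It was at a mean of 16.1 CPM in S2-007, 1.15 in S2-020 and 0.893 in S2-028. MEF2C fell by 4.17 in S2-028 against S2-007 (SE 0.22, adjusted p = 2.11e-12, edgeR's quasi-likelihood test). In S2-020 against S2-007 its log2 fold change was -3.84 (SE 0.135, adjusted p = 7.68e-15, same test). HDAC9, HDAC7 and HDAC4 were each lowest in S2-007, and their relation to MEF2C was not tested. MEF2A was at -0.55 in S2-028 and 0.21 in S2-020 against S2-007 and fell by 0.79 in S2-028 against S2-020 (adjusted p = 7.26e-09). MEF2D stayed between -0.29 and 0.12, under the fold threshold in each comparison. MEF2B fell by 1.27 in S2-028 against S2-007 and by 1.91 against S2-020, at means of 1.36 CPM or less, and was at 0.61 in S2-020 against S2-007 (adjusted p = 0.0976).

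Of 13 kinases that phosphorylate class IIa enzymes, 5 were DEGs in S2-028 against S2-007 (4 higher, 1 lower). In S2-020 against S2-007 5 were DEGs (4 higher, 1 lower), and in S2-028 against S2-020 4 (1 higher, 3 lower). These were 38.5%, 38.5% and 30.8% of the list, beside 18.4%, 21.6% and 22.2% of all genes. CAMK1D, a calcium-dependent kinase, was at means of 4.98 CPM in S2-007, 127.2 in S2-020 and 24.4 in S2-028. Its log2 fold change was 4.64 in S2-020 (SE 0.0746, adjusted p = 7.35e-20) and 2.30 in S2-028 (SE 0.116, adjusted p = 9.91e-13) against S2-007, and it fell by 2.38 in S2-028 against S2-020. PRKD1, which encodes protein kinase D1, was higher in S2-020 than in S2-007 by 1.69 and fell by 1.09 in S2-028 against S2-020. CAMK2D was higher in S2-020 by 0.84 and fell by 0.65 in S2-028 against S2-007, and CAMK2G was higher than in S2-007 by 0.82 in S2-028 and by 0.71 in S2-020. The 14-3-3 proteins hold phosphorylated class IIa enzymes in the cytoplasm. Of their 7 genes, none was a DEG in S2-028 against S2-007, beside 18.4% of all genes (3 at an unadjusted p under 0.05 in edgeR's test). SFN, the epithelial member, fell by 0.92 in S2-020 against S2-007 and was higher by 1.06 in S2-028 than in S2-020. YWHAB fell by 0.69 in S2-028 against S2-020.

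Of 10 genes for substrates of HDAC6 and for the tubulin acetylation cycle, none was a DEG in S2-028 against S2-007, beside 18.4% of all genes. There 7 had an unadjusted p under 0.05 in edgeR's test. In S2-020 against S2-007 and S2-028 against S2-020, 20% and 10% of the list were DEGs, beside 21.6% and 22.2% of all genes. HDAC6 itself was a DEG in none of the 3 comparisons, and a relation to these genes was not tested. TUBA1A, an alpha-tubulin gene, was higher in S2-020 than in S2-007 by 0.74 (adjusted p = 6.62e-08) and fell by 1.01 in S2-028 against S2-020. The autophagy receptor gene SQSTM1 was higher in S2-020 than in S2-007 by 0.60.

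Genes known to rise when cells are treated with HDAC inhibitors were listed as well, although no inhibitor was used here. CDKN1A, which encodes the cell cycle inhibitor p21, was at means of 79.8 CPM in S2-007, 10.9 in S2-020 and 29.8 in S2-028. It fell by 2.90 in S2-020 (adjusted p = 4.12e-14) and by 1.42 in S2-028 (adjusted p = 3.51e-11) against S2-007. TXNIP fell by 0.96 in S2-020 and was at -0.25 in S2-028, and the actin-binding gene GSN was at 0.35 and 0.13, under the fold threshold. Between S2-028 and S2-020, CDKN1A (1.45) and TXNIP (0.67) were higher in S2-028. From highest to lowest, both genes thus had the order S2-007, S2-028, S2-020, as did HDAC1. GSN had the reverse order, at means of 225.3, 245.9 and 293 CPM, with S2-007 and S2-028 libraries overlapping. The relation to HDAC1 was not tested.

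**Figure D5:**
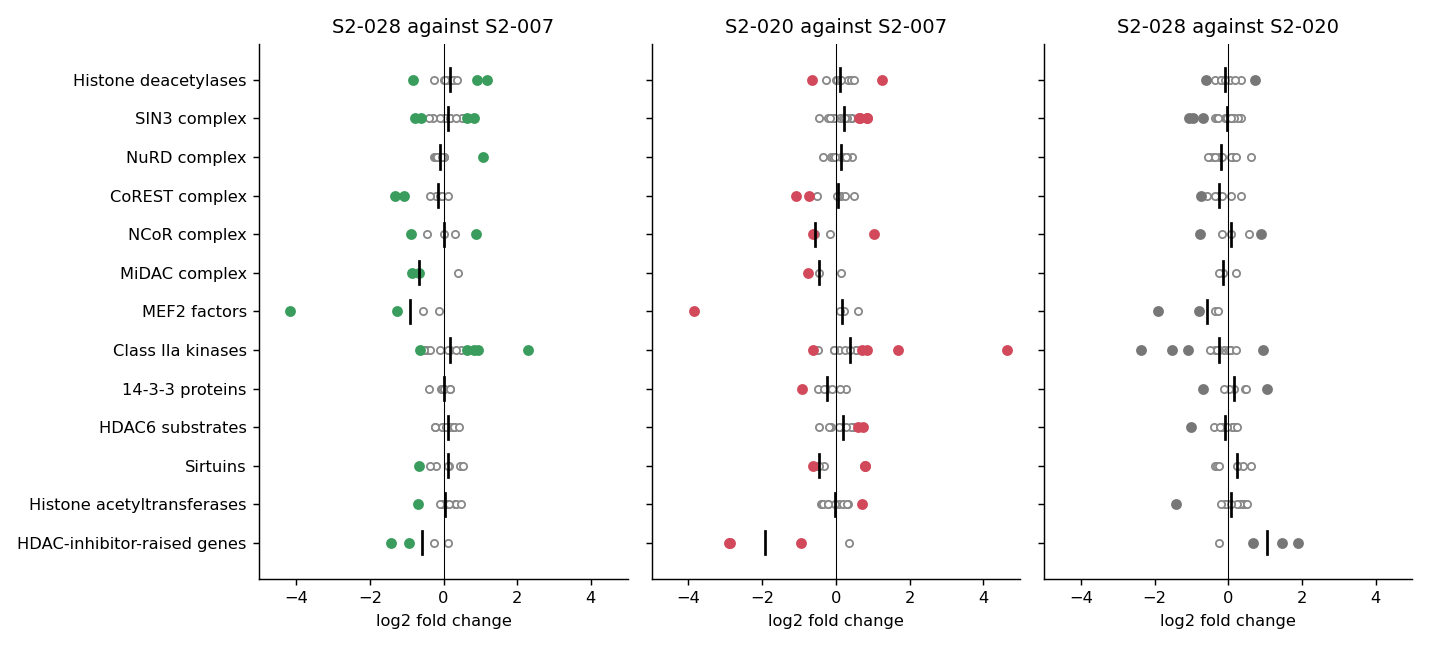
Log2 fold change of each histone deacetylase gene and of each gene of the 12 lists of partners, related enzymes and responsive genes in the 3 comparisons, with filled points for DEGs and a vertical bar for the median of each list. MEF2C at the left (-4.17 and -3.84) and CAMK1D at the right (2.30 and 4.64) lie farthest from 0 in the comparisons with S2-007.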

How the data were processed

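Poly(A)-enriched RNA of the 3 lines was sequenced in strand-specific libraries, 3 for each, and the line of every library was read from its own label. Per the labels and the study's methods, reads were filtered with Trimmomatic 0.39 and aligned to GRCh38.p14 with BWA 0.7.17. Since BWA makes no spliced alignments, reads that span exon junctions can be missed or clipped. The authors deposited whole-number counts of mapped reads for 42717 genes, without normalization. The counting tool and its treatment of strand and of reads with several matches are not given in the sources used here. The table holds 2 further lines that name no gene and 18 columns of normalized signal that the authors deposited, neither of which was used.

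Genes were filtered (filterByExpr, at least 10 counts and 15 in total), scaled by TMM and tested with the quasi-likelihood functions glmQLFit and glmQLFTest of edgeR 4.0.16 in R 4.3.3, using only the 6 libraries of each pair of lines. Adjusted p-values are Benjamini-Hochberg values over all genes tested. The study's methods name a likelihood ratio test, which was an alternative here. The other alternatives were RLE size factors, total counts, other filters, DESeq2 1.42.0, a fit of all 9 libraries, no fold threshold, a replicate block, and leaving out each library. The procedure was tested on simulated data. Printed CPM use TMM factors of all 9 libraries. RPKM divide CPM by the MANE Select transcript length of GENCODE. Coordinates and start sequences are those of RefSeq on GRCh38.p14, which held 42539 (99.6%) of the gene identifiers. Total counts of 60328748 to 86253923 per library set the precision, and each library was nearest to one of its own line.

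The members and the gene lists were chosen with earlier results of these data known. Named in the text are all members, SERPINB5, of each list and comparison at most the 3 DEGs with the smallest adjusted p, all genes of lists with 5 or fewer genes, genes that overlap a member, and marker genes. Results that need some of these genes are not reported here.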

Additional observations from a re-analysis of the deposited data

How the results depend on the processing

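Of 420 member values under alternative settings, 401 kept their direction and their side of the thresholds, 4 lost the call and 15 changed sign. Without the fold threshold 6, 5 and 6 members and 59, 73 and 66 partner genes passed in S2-028 against S2-007, S2-020 against S2-007 and S2-028 against S2-020. Scaling by total counts alone left 1 member called in S2-028 against S2-020, with HDAC11 at -0.53. Leaving out 1 library gave 3, 2 and 1 to 2 members called, and 18 to 21, 22 to 26 and 19 to 21 partner genes, and the fewer members came from HDAC11 without S2-020 replicate 1, S2-020 replicate 3 or S2-028 replicate 2. The values that changed sign were not called. In S2-028 against S2-007 they were HDAC2 (-0.007 with RLE size factors and with DESeq2, and -0.026 to 0.038 on leaving out a library) and HDAC6 (-0.083 without S2-028 replicate 2, to 0.149). In S2-020 against S2-007 they were HDAC3 and HDAC5 (-0.037 and -0.013 with total counts, and -0.011 to 0.065 and -0.058 to 0.128 on leaving out a library). In S2-028 against S2-020 they were HDAC9 (-0.175 to 0.043) and HDAC6 (-0.198 to 0.022) on leaving out a library. The cause was not tested.

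Libraries with the same replicate number did not deviate together (correlations of -0.03 to 0.02 over 9 pairs). With the replicate block 3, 2 and 2 members and 22, 24 and 19 partner genes were called, no member's call changed, and no member's log2 fold change moved by more than 0.033. Counts alone do not resolve HDAC9 transcripts with different starts, and low counts limit HDAC9 and HDAC11 most.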

Other observations

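Of 7 sirtuins, the NAD-dependent deacetylases, 1 was a DEG in S2-028 against S2-007, 3 in S2-020 against S2-007 and none in S2-028 against S2-020 (6 at an unadjusted p under 0.05), beside 18.4%, 21.6% and 22.2% of all genes. SIRT7, the nucleolar member, fell by 0.67 in S2-028 against S2-007 (adjusted p = 4.7e-07, edgeR's quasi-likelihood test). SIRT1 and SIRT2 were higher in S2-020 than in S2-007 by 0.79 and 0.80 (adjusted p = 1.46e-08 and 1.41e-07), and SIRT6 fell by 0.62 (adjusted p = 5.71e-06). Of 11 histone acetyltransferases, KAT2B (also called PCAF) was the only DEG in each of the 3 comparisons, a share of 9.09% below that of all genes. KAT2B had means of 23.4 CPM in S2-007, 38.9 in S2-020 and 14.5 in S2-028, fell by 0.69 in S2-028 and was higher by 0.70 in S2-020 against S2-007, and fell by 1.42 in S2-028 against S2-020 (adjusted p = 1.01e-10).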
